A study of Mus musculus with 36 samples.

Results

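The genes described here are 10 members of the epidermal growth factor receptor (EGFR) pathway, namely 6 ligands (Areg, Ereg, Hbegf, Tgfa, Btc and Epgn), 3 receptors (Egfr, Erbb2 and Erbb3) and the sheddase Adam17. They were chosen by name as parts of the pathway, with earlier results of these data known, and each symbol was matched to one Ensembl identifier among the 52636 genes listed per library. All 10 passed the expression filter that left 15497 genes for testing. Epgn had a mean of 0.400 CPM (counts scaled to library size) over the 36 libraries, under the limit of 0.5 CPM set for this set, and is treated as not detected.

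EGFR ligands are made as membrane-anchored precursors, and metalloproteases such as Adam17 cut them free. The released ligand binds Egfr, which pairs with itself or with Erbb2 or Erbb3 and signals through Ras and ERK. In the intestinal crypt the pathway drives proliferation of stem and progenitor cells, and ligands such as amphiregulin and epiregulin are known from epithelial repair. Erbb2 binds no ligand of its own, and Erbb3 has little kinase activity and binds neuregulins.

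RNA was sequenced from organoids, epithelial structures grown in Matrigel from jejunal crypts of C57BL/6 mice. There were 6 libraries in each of 6 groups. Control IgG was given in 4 media (complete media, QCM, SCM and Wnt5a), and anti-Ptk7 in 2 of them, SCM and Wnt5a. QCM and SCM are organoid medium mixed with concentrated medium conditioned by mouse embryonic fibroblasts (MEFs) that were quiescent after low serum or senescent after X-rays or doxorubicin. Wnt5a, which activates noncanonical Wnt signalling, was added to complete media. Anti-Ptk7 targets the N-terminal domain of the membrane protein Ptk7, a domain that the study reports as shed into SCM by senescent cells. A group named below without an antibody is the IgG group. No library of complete media or QCM with anti-Ptk7 was analysed here, so an effect of the antibody outside SCM and Wnt5a was not measured. The number of mice behind these libraries was not established here, and the labels do not state which replicate number belongs to which mouse. The p values therefore measure the spread between these libraries.

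The libraries held between 9581589 and 21029769 counts. The summed level of 7 epithelial markers was between 8366 and 31931 CPM per library, whereas the sums of 8 fibroblast, 7 immune and 3 endothelial markers reached at most 7.36, 5.44 and 1.18 CPM. The libraries are bulk samples, in which fewer cells of a type and less RNA per cell cannot be told apart.

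Of the ligand genes, Areg, Btc, Ereg and Epgn lie side by side on mouse chromosome 5 (GRCm38, GENCODE M21), and they are the 4 protein-coding genes in a span of 376 kb. Epgn is at chr5:91027464-91035215, Ereg at chr5:91074622-91093646, Areg at chr5:91139599-91148432 and Btc, on the opposite strand, at chr5:91357261-91402994. Areg and Btc were the ligands of this span that rose in SCM and Wnt5a, while Ereg, which lies between Epgn and Areg, passed the test in neither. An antisense gene, Gm19610, overlaps the first 152 bases of Ereg, and without a statement that counting used the strand the reads of the overlap cannot be told apart. Gm19610, at a mean of only 0.515 CPM, had edgeR log2 fold changes of 2.04 in SCM (adjusted p = 0.0110) and 1.39 in Wnt5a (adjusted p = 0.0659).

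The promoter sequences of 4 members are shown because 3 of these genes rose in SCM and Wnt5a and Erbb2 did not. Each is the 250 bases before the RefSeq transcription start on GRCm38.p6, written 5′ to 3′ on the strand of the gene. Capitals mark matches to 4 motifs searched on both strands, which are the TEAD motif GGAATG, the AP-1 motif TGANTCA, the cyclic AMP response element TGACGTCA and the TATA motif TATAAA. The windows are chr5:91139349-91139598 (plus strand) for Areg, chr5:91402995-91403244 (minus strand) for Btc, chr11:16751953-16752202 (plus strand) for Egfr and chr11:98412234-98412483 (plus strand) for Erbb2.
Areg: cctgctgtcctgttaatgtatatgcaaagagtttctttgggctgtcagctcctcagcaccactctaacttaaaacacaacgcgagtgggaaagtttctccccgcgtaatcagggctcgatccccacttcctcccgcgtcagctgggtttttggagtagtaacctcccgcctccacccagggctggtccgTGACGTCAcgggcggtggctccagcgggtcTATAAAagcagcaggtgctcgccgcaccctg
Btc: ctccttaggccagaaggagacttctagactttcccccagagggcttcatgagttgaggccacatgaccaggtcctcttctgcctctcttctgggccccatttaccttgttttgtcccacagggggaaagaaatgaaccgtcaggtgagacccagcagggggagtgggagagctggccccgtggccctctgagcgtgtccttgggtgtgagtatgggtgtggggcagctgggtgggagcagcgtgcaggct
Egfr: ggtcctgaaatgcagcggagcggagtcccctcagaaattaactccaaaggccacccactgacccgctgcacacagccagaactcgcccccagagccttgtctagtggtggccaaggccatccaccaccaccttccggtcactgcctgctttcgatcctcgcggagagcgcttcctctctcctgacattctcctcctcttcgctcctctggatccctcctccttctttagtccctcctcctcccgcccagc
Erbb2: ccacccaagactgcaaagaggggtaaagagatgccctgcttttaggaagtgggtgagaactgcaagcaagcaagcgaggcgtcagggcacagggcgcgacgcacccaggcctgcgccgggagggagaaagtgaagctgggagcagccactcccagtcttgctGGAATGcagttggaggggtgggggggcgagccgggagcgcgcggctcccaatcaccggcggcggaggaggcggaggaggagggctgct
The Areg window held a cyclic AMP response element from base −61 to base −54 and a TATA motif from −31 to −26, counted from the start site, which are matches found in 1.63% and 12.9% of the 26731 promoter windows of the same length. The Btc and Egfr windows held none of the 4 motifs. A TEAD motif stood from −88 to −83 of Erbb2 and occurs in 12.6% of the windows. AP-1 motifs, found in 6.85% of the windows, stood in none of the 7 members whose promoter was given. A match describes these letters only, and its absence says nothing about distal elements or about a factor.

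In SCM, 3 of the 6 ligands and 1 of the 3 receptors rose. Areg, Hbegf, Btc and Egfr were 1.85-fold to 2.20-fold higher than in complete media, which is 4 of 10 members, all higher, against a background of 6.08% of all genes called in this comparison and 4.96% called higher. To be called, a gene needed a quasi-likelihood test of edgeR with an adjusted p below 0.05 and a difference of more than 1.5-fold. In Wnt5a, 5 of 10 members were called, again all higher, against 10.2% of all genes and 8.29% called higher. These were the same 4 genes and Tgfa, with fold changes from 1.54 for Tgfa to 3.60 for Egfr. In QCM none of the 10 members was called, none had an unadjusted p under 0.05, and DESeq2 and voom with limma called none either, against 0.374% of all genes called by edgeR. The median log2 fold change of the 10 members was 0.69 in SCM and 0.55 in Wnt5a, and that of all genes was 0.01 in both. These medians include Epgn, which was not detected. Among the detected members the middle value was 0.50 in SCM (Ereg) and 0.63 in Wnt5a (Tgfa). The QCM, SCM and Wnt5a comparisons share the complete media libraries, so they are not independent of each other.

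**Figure D1:**
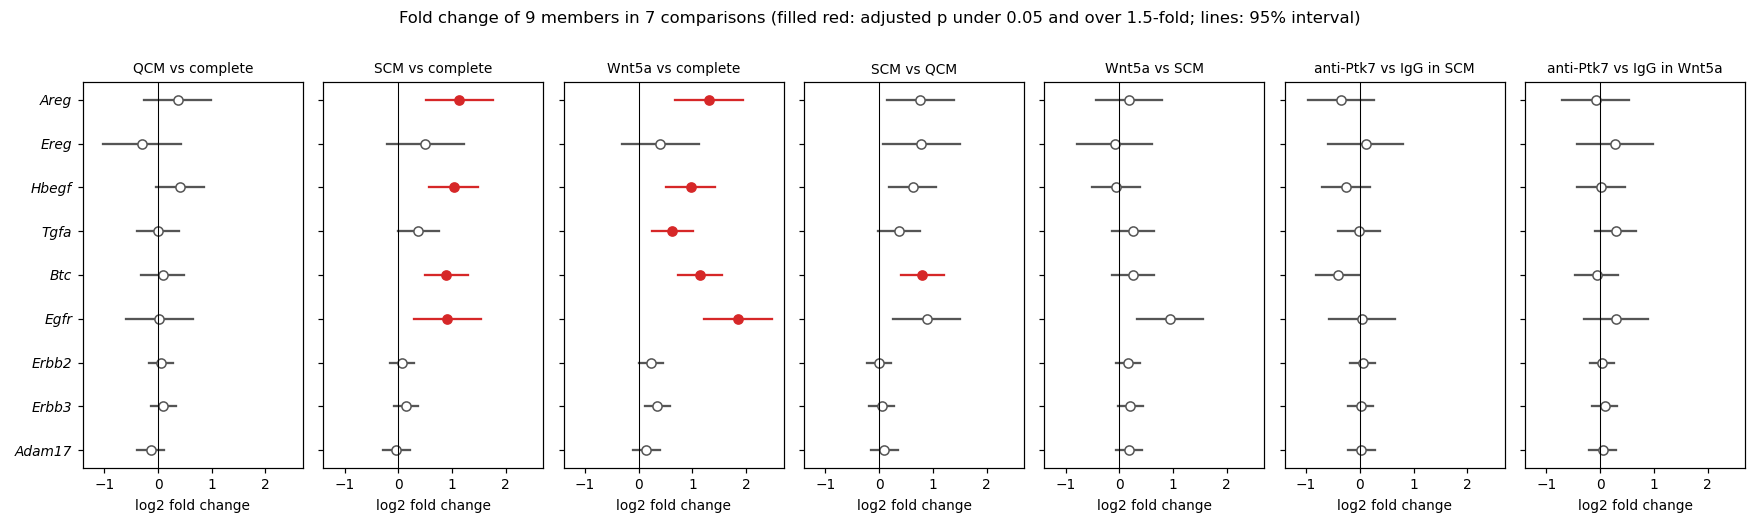
Log2 fold change (x axis) of the 9 detected members in 7 comparisons, one panel each, with the edgeR estimate as a point and its 95% interval as a line. Filled red points passed the test: 4 in SCM against complete media, 5 in Wnt5a against complete media, and Btc in SCM against QCM, while no member passed in the QCM, Wnt5a against SCM and anti-Ptk7 panels.

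Areg (ENSMUSG00000029378) encodes amphiregulin. Its lowest, median and highest values were 45.5, 78.4 and 148 CPM in complete media and 60.2, 107 and 183 CPM in QCM. In SCM they were 86.8, 210.4 and 288 CPM, and in Wnt5a 153, 191 and 379.6 CPM. Every Wnt5a library was above every complete media library, while SCM replicates 2 and 3 lay within the range of complete media. Complete media had a mean of 90.6 ± 37.9 CPM (SD, n = 6) and SCM one of 199 ± 74.0 CPM, a log2 fold change of 1.14 ± 0.31 (SE, adjusted p = 0.0132). In Wnt5a the log2 fold change was 1.31 ± 0.31 (adjusted p = 0.00231). Without SCM replicate 1 the log2 fold change in SCM was 1.00 and its adjusted p 0.0509, so that it was not called. Without the 6 libraries numbered 1, that one among them, it was 1.20 (adjusted p = 0.00542). Against QCM, Areg in SCM had a log2 fold change of 0.77 ± 0.31 and an adjusted p of 0.181. That test depends on how the replicate number is treated. With the number as a block in the edgeR model, Areg was called (0.78, adjusted p = 2.58e-05), but the labels do not tie a number to a mouse.

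Btc (ENSMUSG00000082361) encodes betacellulin, which binds both Egfr and the neuregulin receptor Erbb4. Its lowest, median and highest values were 25.8, 37.0 and 50.6 CPM in complete media, 26.3, 40.9 and 56.7 CPM in QCM, 51.8, 70.6 and 101 CPM in SCM and 62.7, 79.7 and 123 CPM in Wnt5a. The SCM and the Wnt5a libraries were all above the complete media libraries, and SCM replicates 2 and 3 lay below the highest QCM library. Btc had a log2 fold change of 0.89 ± 0.20 (SE, adjusted p = 0.00234) in SCM and of 1.14 ± 0.20 (adjusted p = 7.86e-05) in Wnt5a. It was the 1 member of 10 called in SCM against QCM, where 0.903% of all genes were called and 0.761% called higher, with a log2 fold change of 0.81 ± 0.20 and an adjusted p of 0.0299. In SCM against QCM 6 members, Areg, Ereg, Hbegf, Btc, Egfr and Epgn, had an unadjusted p under 0.05, as had 2633 of all 15497 genes. Epgn, 1 of these 6, was not detected. The median log2 fold change was 0.70 for the 10 members and −0.01 for all genes. Among the detected members the middle value was 0.62 (Hbegf). The call of Btc was lost without QCM replicate 2, 3 or 4 or SCM replicate 1 or 5, where the adjusted p lay between 0.0517 and 0.115.

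Hbegf (ENSMUSG00000024486), on chromosome 18, encodes heparin-binding EGF-like growth factor. It was at 11.9, 13.7 and 21.2 CPM (lowest, median and highest) in complete media, 14.8, 19.5 and 24.4 CPM in QCM, 18.5, 33.8 and 39.3 CPM in SCM, and 23.2, 24.6 and 43.7 CPM in Wnt5a. In SCM, 4 libraries lay between 32.99 and 39.3 CPM, and replicates 2 and 3 were at 19.1 and 18.5 CPM, within the range of complete media. Hbegf had a log2 fold change of 1.03 ± 0.22 (SE, adjusted p = 0.00187) in SCM and of 0.96 ± 0.22 (adjusted p = 0.00179) in Wnt5a. Against QCM, the value for SCM was 0.62 ± 0.22 with an adjusted p of 0.129. With the replicate number as a block in the edgeR model it was called, close to the fold cutoff (0.59, adjusted p = 0.0241).

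Tgfa (ENSMUSG00000029999), at chr6:86195223-86275719, encodes transforming growth factor alpha. Its lowest, median and highest values were 36.2, 44.8 and 51.0 CPM in complete media, 39.2, 44.5 and 51.4 CPM in QCM, 45.0, 55.8 and 76.2 CPM in SCM and 35.8, 69.5 and 102 CPM in Wnt5a. In Wnt5a, 5 of 6 libraries were above all complete media libraries, and replicate 3 was below them all. The log2 fold change was 0.63 ± 0.19 (SE, adjusted p = 0.0158) in Wnt5a and 0.37 ± 0.19 (adjusted p = 0.225) in SCM. The Wnt5a value lay close to the fold cutoff of 0.585 on the log2 scale, and the call was lost without Wnt5a replicate 1 (log2 fold change 0.48, adjusted p = 0.0848) or without complete media replicate 4 (0.56, adjusted p = 0.0466).

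Ereg (ENSMUSG00000029377) encodes epiregulin and was the scarcest detected ligand in CPM. Its group means were 6.79 ± 1.84 CPM (SD, n = 6) in complete media, 5.52 ± 3.21 CPM in QCM, 9.52 ± 4.16 CPM in SCM and 8.98 ± 4.31 CPM in Wnt5a. The groups overlapped, and the log2 fold changes of 0.50 in SCM and 0.40 in Wnt5a had adjusted p values of 0.417 and 0.464. Against QCM, Ereg in SCM had a log2 fold change of 0.79 ± 0.35 (adjusted p = 0.245). Among the 15 pairs of groups, Ereg was called in 1, Wnt5a + anti-Ptk7 against QCM, at a log2 fold change of 0.97 ± 0.35 (SE, adjusted p = 0.0323), a pair in which 14.7% of all genes were called.

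Epgn (ENSMUSG00000035020), which encodes epigen, had counts above 0 in 19 of 36 libraries. Its highest value was 3.78 CPM, or 58 counts, in SCM replicate 1, and its group means lay between 0.0975 CPM in QCM and 0.860 CPM in SCM. The other SCM libraries held between 0 and 8 counts. The gene was called in no pair of groups, and its log2 fold change in SCM against QCM was 3.07 with a 95% interval from 0.34 to 5.79 (adjusted p = 0.230).

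**Figure D2:**
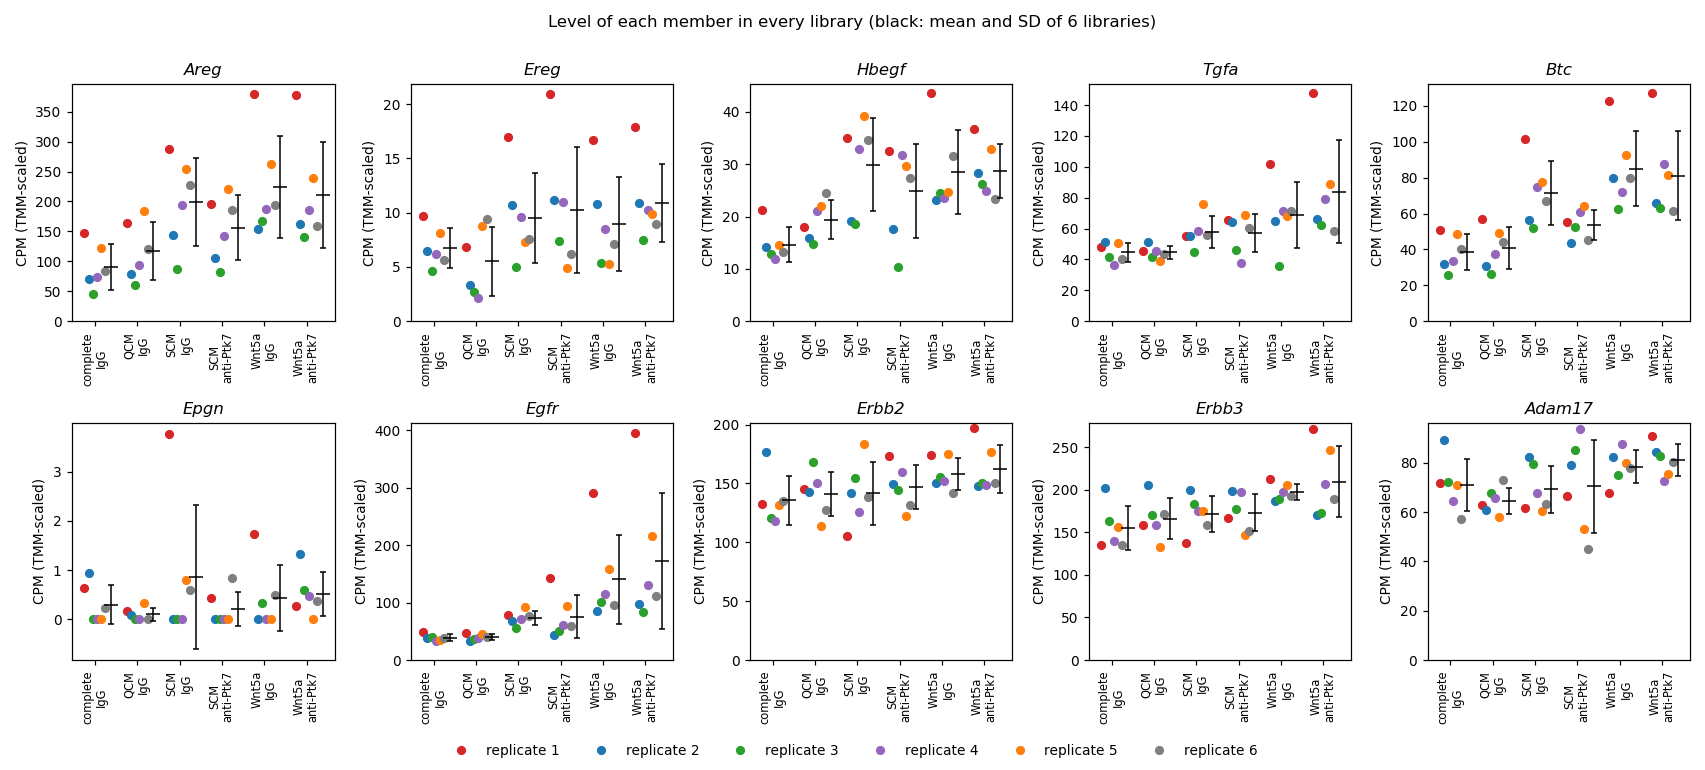
Level of each of the 10 members in CPM after TMM scaling (y axis, from 0) in every library, by group (x axis), coloured by replicate number, with mean and SD in black. For Egfr, the libraries of complete media and QCM lie between 32.6 and 49.1 CPM, and those of Wnt5a with IgG between 84.8 and 290.1 CPM with replicate 1 on top.

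Summed over the 6 ligands, the level per kilobase of coding sequence was 313 ± 83.0 CPM per kb (SD, n = 6) in complete media and 357 ± 91.8 CPM per kb in QCM. It was 576 ± 162 CPM per kb in SCM and 651 ± 204 CPM per kb in Wnt5a. With anti-Ptk7 the sum was 475 ± 108 CPM per kb in SCM and 657 ± 239 CPM per kb in Wnt5a. Areg made up the highest share of the sum in each group, between 37.7% in complete media and 45.8% in Wnt5a as means of 6 libraries. In Wnt5a it was followed by Btc with 24.96%, Tgfa with 19.2%, Hbegf with 7.15% and Ereg with 2.83%. These shares depend on the length used. The study states that it counted reads in coding sequence, yet non-coding genes have counts too, and over the merged length of all exons the share of Areg over the 36 libraries was 80.7% in place of 42.8%. Within a ligand, the comparison between groups does not depend on the length.

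**Figure D3:**
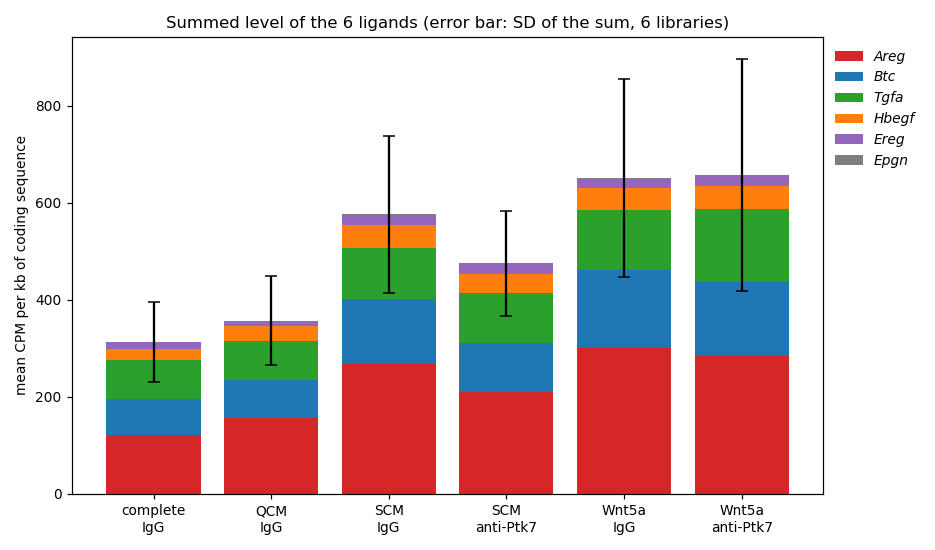
Mean level of the 6 ligands in CPM per kb of coding sequence (y axis, from 0), stacked by ligand for each group of 6 libraries (x axis), with the SD of the summed level as the error bar. The sum is 313 for complete media, 576 for SCM and 651 for Wnt5a, and Areg forms the largest block in each bar.

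Among the receptors, Egfr was called in SCM and in Wnt5a, and its partners Erbb2 and Erbb3 were called in neither. Egfr (ENSMUSG00000020122, chr11:16752203-16918158) was at 32.6, 39.0 and 49.1 CPM (lowest, median and highest) in complete media and at 32.8, 38.5 and 47.1 CPM in QCM. In SCM it was at 55.4, 73.7 and 91.8 CPM, and in Wnt5a at 84.8, 108 and 290.1 CPM. Every SCM and Wnt5a library was above every library of complete media and of QCM. Egfr had a log2 fold change of 1.85 ± 0.31 (SE, adjusted p = 5.13e-05) in Wnt5a, 3.60-fold, the largest among the called members. In SCM it was 0.91 ± 0.31 (adjusted p = 0.0470), a call close to the threshold.

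The SCM call of Egfr was lost without any 1 of complete media replicates 2, 3, 4, 5 and 6 or SCM replicates 1, 2, 4, 5 and 6, with log2 fold changes between 0.82 and 0.93 and adjusted p values between 0.0612 and 0.102. With voom and limma the adjusted p was 0.0729. Against QCM, the libraries of SCM were all higher in Egfr, with a log2 fold change of 0.88 ± 0.30 and an adjusted p of 0.119. With the replicate number as a block in the edgeR model it was called (0.89, adjusted p = 0.00131). Wnt5a against SCM gave 0.94 ± 0.30 for Egfr and an adjusted p of 0.0787, in a comparison with 0.69% of all genes called. The block gave a call there as well (0.80, adjusted p = 0.00856).

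Erbb2 (ENSMUSG00000062312, chr11:98412470-98437716) had mean levels of 136 ± 21.03 CPM for complete media, 142 ± 26.5 CPM for SCM and 158 ± 13.5 CPM for Wnt5a (SD, n = 6). The log2 fold change was 0.06 in SCM, with a 95% interval from −0.17 to 0.29, and 0.22 in Wnt5a, with an interval from −0.0039 to 0.45 (adjusted p = 0.159). Erbb3 (ENSMUSG00000018166, chr10:128567523-128589652) had mean levels of 155 ± 25.8, 171 ± 21.5 and 197 ± 9.88 CPM in the same order. In Wnt5a the log2 fold change of Erbb3 was 0.34 ± 0.11 (SE, adjusted p = 0.0265), under the 1.5-fold cutoff. Its 95% interval of 0.11 to 0.58 ended just below that cutoff.

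Per kilobase of coding sequence, Egfr in complete media was at 10.5 ± 1.51 CPM per kb (SD, n = 6), below Erbb2 at 36.01 ± 5.58 and Erbb3 at 38.7 ± 6.42 CPM per kb. In Wnt5a Egfr was at 37.9 ± 20.9 CPM per kb, beside Erbb2 at 42.0 ± 3.58 and Erbb3 at 49.1 ± 2.46 CPM per kb. Per kilobase of all exons, Egfr in Wnt5a was at 12.4 ± 6.86 CPM per kb, below Erbb2 at 30.4 ± 2.59 and Erbb3 at 32.8 ± 1.64 CPM per kb.

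Adam17 (ENSMUSG00000052593, chr12:21323509-21373632) encodes the protease that releases Areg, Hbegf, Tgfa and Ereg from the cell surface. Mean levels were 71.1 ± 10.6 CPM (SD, n = 6) for complete media, 64.5 ± 5.38 CPM for QCM, 69.1 ± 9.43 CPM for SCM and 78.3 ± 6.67 CPM for Wnt5a. The SCM log2 fold change was −0.04, with a 95% interval from −0.29 to 0.21, and that of Wnt5a 0.14, with an interval from −0.11 to 0.39. Both intervals stay inside the 1.5-fold cutoff. A protein-coding gene of the other strand, Iah1, overlaps 311 bases of Adam17 and had a mean of 51.0 CPM over the 36 libraries, near the level of Adam17. Transcripts of the other strand also overlap Egfr (Egfros, mean 0.506 CPM) and Tgfa (Gm43917, mean 1.39 CPM), both far below the level of these members, and Mien1 (mean 96.6 CPM) overlaps 9 bases of Erbb2.

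The antibody comparisons ask whether blocking Ptk7 changed these levels in SCM or in Wnt5a. No member was called with anti-Ptk7 against IgG in SCM, where 1.23% of all genes were called, or in Wnt5a, where 0.884% were. Voom with limma and DESeq2 called none either. In SCM 1 member, Btc, had an unadjusted p under 0.05. Its lowest, median and highest values were 43.5, 53.9 and 64.4 CPM with the antibody and 51.8, 70.6 and 101 CPM with IgG, and its log2 fold change was −0.41 with a 95% interval from −0.81 to −0.01 and an adjusted p of 0.273. In Wnt5a no member had an unadjusted p under 0.05.

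The antibody intervals were wide for the genes that rose. For Areg the log2 fold change with the antibody was −0.35 in SCM, with a 95% interval from −0.97 to 0.27, and −0.09 in Wnt5a, with an interval from −0.70 to 0.53. For Egfr it was 0.04, from −0.57 to 0.65, in SCM and 0.30, from −0.31 to 0.90, in Wnt5a. A test of whether the antibody acted differently in the 2 media called none of the 10 members and none of all genes (0%), with 0 members at an unadjusted p under 0.05, and DESeq2 and voom with limma also called no member.

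Against complete media, 2 members were called in SCM + anti-Ptk7, Hbegf and Egfr, with 5.86% of all genes called. Areg and Btc, called with IgG, had log2 fold changes of 0.78 ± 0.31 (adjusted p = 0.0934) and 0.48 ± 0.20 (adjusted p = 0.111) there. The same 5 members as with IgG were called in Wnt5a + anti-Ptk7, with 14.5% of all genes called. In Wnt5a + anti-Ptk7 the lowest, median and highest values of Egfr were 84.3, 121 and 395 CPM, and its log2 fold change against complete media was 2.14 ± 0.31 (SE, adjusted p = 3.08e-06). Egfr in that group was also above SCM + anti-Ptk7, with a log2 fold change of 1.19 ± 0.30 (adjusted p = 0.0235), where 1.53% of all genes were called.

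In the order of group means from low to high, complete media and QCM came before the 4 other groups for Areg, Hbegf, Tgfa, Btc and Egfr. The same held for Ereg and Erbb3, which were called in neither SCM nor Wnt5a, but not for Erbb2 and Adam17. Areg followed the order complete media, QCM, SCM + anti-Ptk7, SCM, Wnt5a + anti-Ptk7 and Wnt5a on the log2 scale, and no neighbouring pair of that order passed the test. Over the 9 detected members, 1 of 45 neighbouring steps passed, Egfr from QCM to SCM + anti-Ptk7 (log2 fold change 0.93 ± 0.30, adjusted p = 0.0475), a pair with 3.05% of all genes called. Of the 150 tests of a member in a pair of groups, 30 passed, where 5.3% of such tests passed over all genes. All 30 were for Areg, Hbegf, Tgfa, Btc, Egfr or, once, Ereg.

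Libraries with replicate number 1 were high for several members. They held the highest value of Btc, Egfr and Ereg in 5 of 6 groups each, and of Areg and Hbegf in 4 of 6. Replicate 3 held the lowest Areg in 5 of 6 groups and the lowest Btc in 4. Egfr reached 290.1 CPM in replicate 1 of Wnt5a and 395 CPM in replicate 1 of Wnt5a + anti-Ptk7, while the other libraries of these groups lay between 84.3 and 216 CPM. Tgfa, Erbb2, Erbb3 and Adam17 lacked this order, with replicate 1 highest in 2, 2, 2 and 1 of 6 groups. Erbb3 had replicate 2 highest in 4 of 6 groups. When the 6 libraries numbered 1 were left out, a choice made after seeing the data, the called members in SCM remained the same 4. In Wnt5a 4 of the 5 remained, since Tgfa had a log2 fold change of 0.50, and in SCM against QCM Egfr was called beside Btc, at 0.92 (adjusted p = 0.0112).

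After each group mean was subtracted, the log2 levels of Areg and Btc had a Pearson r of 0.87 over the 36 libraries, those of Areg and Hbegf 0.78, Areg and Egfr 0.72 and Erbb2 and Erbb3 0.66. The value was −0.43 for Areg and Adam17. These are descriptions of libraries that share scaling, and by number possibly the mouse. Over the same libraries with group differences kept, the non-member genes most like Areg were Anxa10, Lgals3 and Serpinb5 (Pearson r of 0.97, 0.97 and 0.96). Among those most like Btc were Rdh10 and Cd44 (0.95 and 0.94), and those most like Egfr were Map4, Cpe and Plec (0.96, 0.95 and 0.95). Hbegf was closest to Fos, Junb and Gata5 (0.89, 0.88 and 0.88) and Tgfa to Lima1, Ppp2r5b and Dcaf12 (0.91, 0.90 and 0.89). The r of the genes named was lower for Ereg (Pgap1, Rap2c and Cldnd1, 0.78 to 0.76), Erbb2 (Add1 and Ikbkb, 0.78 and 0.76), Erbb3 (Pxn, Net1 and Lrrk1, 0.81 to 0.80) and Adam17 (Scamp1, Ctps2 and Fam126a, 0.78 to 0.71).

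Other genes of the pathway were taken from 5 lists. Of 6 further ErbB ligands and receptors, 2 were tested, and neither was called. Egf, the founding ligand, was near the detection limit, with 1.32 ± 0.912 CPM (SD, n = 6) for complete media and 0.242 ± 0.313 CPM for Wnt5a (adjusted p = 0.147). Nrg4, a neuregulin that binds Erbb4, was at 14.3 CPM in complete media and 14.2 CPM in Wnt5a. Erbb4 had a count of 0 in every library, which allows at most 3 counts in a library, and Nrg1, Nrg2 and Nrg3 had at most 3 counts in any library. These limits cover counting error only.

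Sheddases other than Adam17, with their partners, were 8 genes of which 7 were tested. None was called in SCM, and 2 of the 7, Adam9 and Rhbdf1, rose in Wnt5a, where 8.29% of all genes were called higher. Adam9, a metalloprotease of the same family, rose from 85.5 to 171 CPM, a log2 fold change of 1.00 ± 0.15 (SE, adjusted p = 1.4e-05), and was also higher in Wnt5a than in SCM (0.62 ± 0.15, adjusted p = 0.0270). Rhbdf1, an inactive rhomboid that carries Adam17 to the cell surface, had a log2 fold change of 0.84 ± 0.16 (adjusted p = 0.000298). Adam15 was called with anti-Ptk7 in both media, with log2 fold changes of 0.93 ± 0.21 in SCM (adjusted p = 0.0138) and 0.82 ± 0.21 in Wnt5a (adjusted p = 0.0279).

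Genes that restrain the receptor moved in both directions. Of 9 tested, 2 rose and 1 fell in SCM, and 4 rose and 1 fell in Wnt5a, beside 6.08% and 10.2% of all genes called in these comparisons, with medians of the list of 0.25 and 0.57 on the log2 scale against 0.01 for all genes. Errfi1, a feedback inhibitor that binds the EGFR kinase, rose from 155 to 254 CPM in SCM (log2 fold change 0.71 ± 0.17, SE, adjusted p = 0.00492) and to 291 CPM in Wnt5a. Cblb, a ubiquitin ligase, had log2 fold changes of 1.15 ± 0.19 and 1.09 ± 0.19, and it was also called in SCM against QCM (0.72 ± 0.19, adjusted p = 0.0372). Sh3kbp1, a Cbl-binding adaptor, and Socs5 rose in Wnt5a, by 2.03 ± 0.44 and 0.96 ± 0.25 on the log2 scale. Lrig3, a transmembrane protein of the Lrig family, fell from 82.2 CPM to 47.5 CPM in SCM and 52.6 CPM in Wnt5a, with no overlap between the groups.

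The adaptors and the Ras-ERK cascade, 18 genes from Grb2 to Mapk3, showed 1 call in SCM, a share near the 6.08% of all genes called there. The gene was the Ras inhibitor Nf1, which fell from 10.2 to 5.61 CPM in SCM (log2 fold change −0.86 ± 0.26, SE, adjusted p = 0.0283). None of the 18 was called in Wnt5a, where 10.2% of all genes were.

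Part of the genes known as feedback and response genes of ERK rose. Of 19 tested, 5 rose in SCM and 9 in Wnt5a, and none fell, beside 4.96% and 8.29% of all genes called higher. The list medians were 0.53 and 0.63 on the log2 scale, against 0.01 for all genes. In SCM against QCM none of the 19 was called, where 0.903% of all genes were. The list median there was 0.37, against −0.01 for all genes. Ier3, an immediate early gene, had log2 fold changes of 1.43 ± 0.30 (SE, adjusted p = 0.00123) in SCM and 1.72 ± 0.30 (adjusted p = 7.8e-05) in Wnt5a. Plaur, the urokinase receptor, had 1.33 ± 0.37 and 1.85 ± 0.37, and Phlda1 0.93 ± 0.25 and 1.43 ± 0.25. Spred3 had the largest value in Wnt5a, 2.37 ± 0.75 (adjusted p = 0.0197), at a mean of 0.823 CPM against 0.146 CPM in complete media. In SCM the antibody comparison, with 1.23% of all genes called, called 1 gene of these 19, the ERK inhibitor Spry1, which fell from 46.2 to 28.5 CPM (log2 fold change −0.69 ± 0.15, adjusted p = 0.00853) with no overlap between the groups. In Wnt5a the antibody changed none of the 19 past the test. The list medians with the antibody against IgG were −0.45 in SCM and −0.27 in Wnt5a, against 0.00 and 0.01 for all genes.

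**Figure D4:**
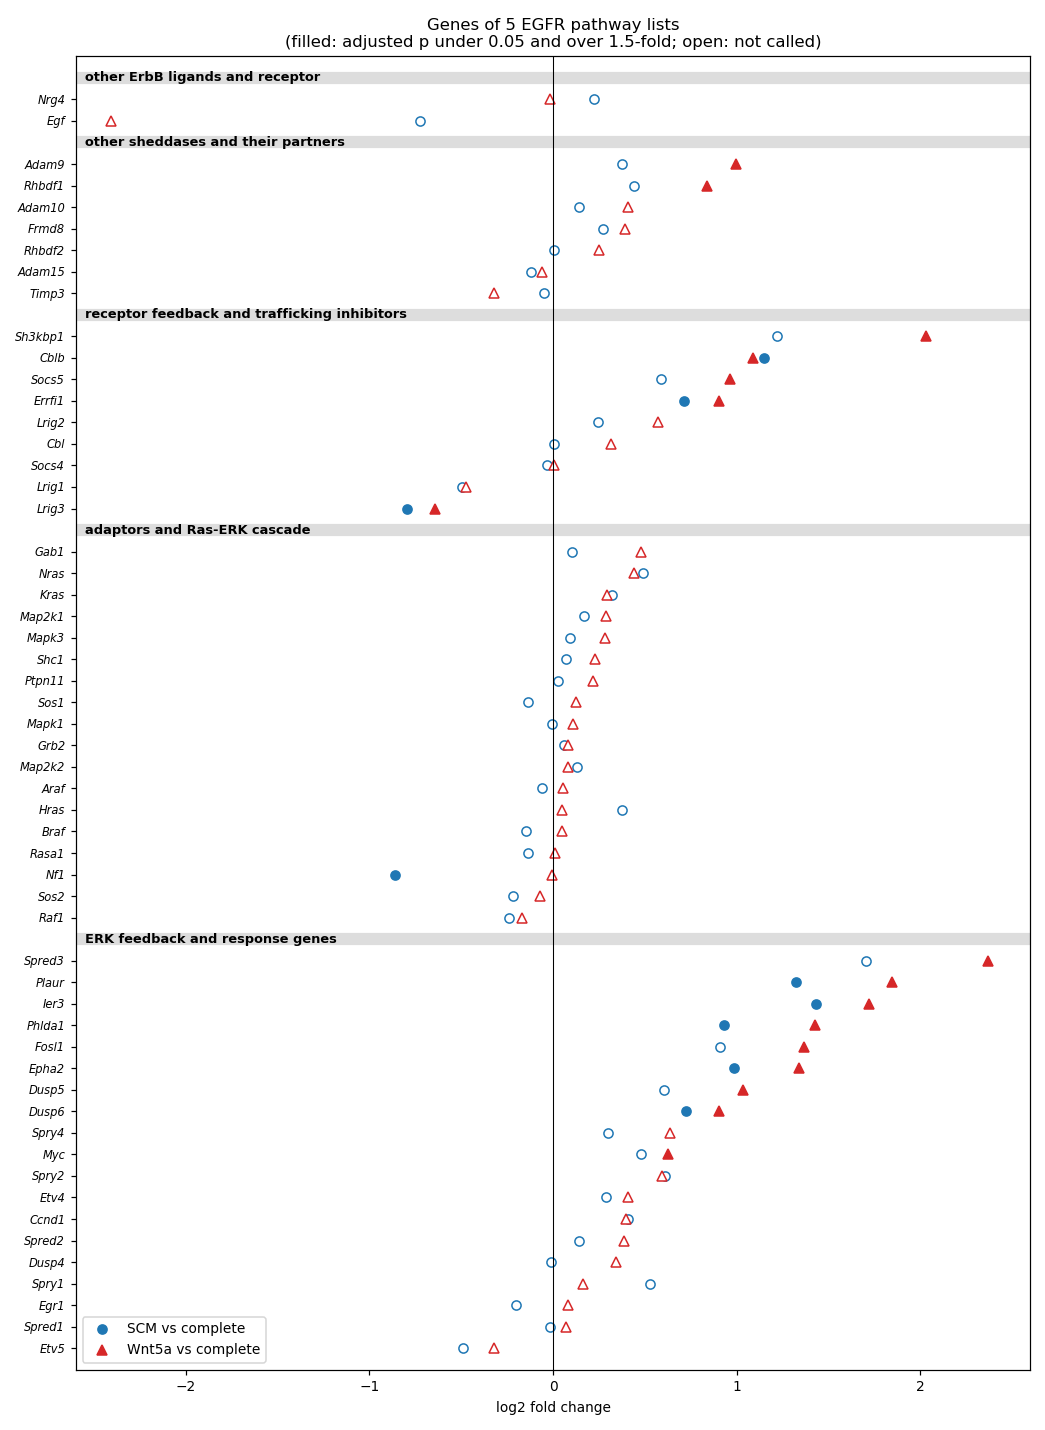
Log2 fold change (x axis) of the 55 tested genes in 5 EGFR pathway lists in SCM (blue circles) and Wnt5a (red triangles) against complete media, filled where the gene was called. The ERK response genes Ier3, Plaur, Phlda1, Epha2 and Dusp6 are filled for both media, and in the Ras-ERK cascade Nf1 in SCM is the only filled point.

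Cell type markers also differed between the groups, in comparisons with 4.96% of all genes called higher in SCM, 8.29% in Wnt5a and 0.374% called in either direction in QCM. In SCM, 3 of 7 epithelial markers rose, Krt8, Krt18 and Krt19, with log2 fold changes of 1.08, 1.00 and 0.95, and in Wnt5a these and Cdh1. The summed epithelial level had a median of 9224 CPM in complete media, 15247 CPM in SCM and 15565 CPM in Wnt5a, and reached 27395 CPM in the highest Wnt5a library. Of 4 stem cell markers 1, Smoc2, fell in both media, by 0.77 and 0.67 on the log2 scale. Of 6 enterocyte markers, 4 rose in SCM and 3 in Wnt5a and in QCM. Of 5 Paneth cell markers, 2 rose in SCM and in Wnt5a and 1 in QCM. The summed level of the 5 had a median of 3913 CPM in complete media, 3948 CPM in SCM and 3628 CPM in Wnt5a. The 3 with the highest levels, Itln1, Defa24 and Lyz1, were not called and had lower means in Wnt5a than in complete media. Of 4 tuft cell markers, 3 rose in Wnt5a, all at low levels. The summed level of the 4 had a median of 8.57 CPM in complete media and 24.1 CPM in Wnt5a. The fourth, Pou2f3, had means of 2.78 and 2.49 CPM. Of 5 enteroendocrine markers 1, Neurog3, fell in both media, and of 6 goblet cell markers none was called. Whether shifts in these cell types have a part in the levels of the ligands and of Egfr was not tested. The summed level of the 8 fibroblast markers had a range of 0.146 to 5.69 CPM in complete media, 0 to 2.704 CPM in SCM and 0.211 to 3.09 CPM in Wnt5a, and 1 of the 8 passed the filter.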

How the data were processed

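RNA was made into libraries with Smart-Seq V4 and Nextera XT and sequenced from 36 organoid cultures, and each library was assigned to its group and replicate number by its labels. Through HTSeqGenie the authors ran read filtering and GSNAP alignment to NCBI Build 38 (mm10), and they deposited raw counts per gene for each library, without normalization. Their methods name reads within coding sequences. The annotation and the use of strand are not given in the sources used here. The deposited counts of a series-wide table equal those of the single libraries in 36 of 36 columns, and the latter were used.

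From these counts, filterByExpr and TMM of edgeR 4.0.16 (R 4.3.3) were applied, and the quasi-likelihood test was fitted in one model with 6 group means. The Benjamini-Hochberg adjustment covered all 15497 genes, and calls needed an adjusted p below 0.05 with more than 1.5-fold difference, as in the study. The study's own method, voom with limma 3.58.1 after quantile normalization, and DESeq2 1.42.0 were alternatives, with RLE factors, library size alone, no filter, a replicate block, fits of the compared groups alone, no fold cutoff, exon in place of coding length, and each library left out in turn. CPM are TMM-scaled, log2 CPM used a prior count of 2, and errors are SD over 6 libraries or SE of the fit. Replicates of a group differed by a chi-square per gene of at least 7.25 in all 90 pairs, and none was counted as a duplicate. The scripts were tested on simulated data.

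The members and all gene lists were chosen with earlier results of these data known. All 10 members are named. Of each pathway list, genes called in at least 1 of 7 comparisons could be named, up to 4 with the largest change per direction, and for each detected member the 3 genes most correlated with it, of which some are not reported here. Positions are from GENCODE M21, and promoters, given for 7 of 10 members, from RefSeq. Ligand levels were divided by merged coding length. The depth of 9581589 to 21029769 counts gives few counts for Epgn, Egf and other genes near 1 CPM, and their libraries also vary within a group.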

Additional observations from a re-analysis of the deposited data

Results flagged for a closer look

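In complete media, the level of Hbegf in replicate 1 was 21.2 CPM, and the other 5 libraries lay between 11.9 and 14.5 CPM. In the same group, the level of Erbb2 in replicate 2 was 176 CPM, and the others lay between 118 and 135 CPM. Each value stood further from its nearest neighbour, relative to the range of its group, than Dixon's 95% limit for 6 samples. With 60 sets of a member in a group examined, chance alone flags about 1 set in 20. Without complete media replicate 1 Hbegf was still called in SCM and in Wnt5a, and without replicate 2 Erbb2 was still called in neither.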

How the results depend on the processing

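Of 1704 log2 fold changes of members under other settings, none reversed a call, and 97 changed sign while not called in either fit. The calls of Hbegf and Btc in SCM and of Areg, Hbegf, Btc and Egfr in Wnt5a held under all settings run. In SCM 4 members were called, between 2 and 4 with 1 library left out, and Egfr was lost with voom and limma (0.88), RLE factors (0.91) and no filter (0.91). In Wnt5a it was 5 members, between 4 and 5 with 1 library left out, and Tgfa was lost with voom and limma (0.55) and with library size alone (0.57). With no fold cutoff Erbb3 was added in Wnt5a, for 6 members, and 36 of 150 tests in pairs of groups passed. SCM against QCM gave 1 call, between 0 and 1 with 1 library left out, 2 with only the groups compared and 2 without the 6 libraries numbered 1 (Btc and Egfr). Wnt5a against SCM gave 0 calls, between 0 and 1 with 1 library left out (Egfr without Wnt5a replicate 2), and 1 with DESeq2, again Egfr. Leaving out 1 library gave 0 calls in QCM, in the antibody comparisons and in their difference. Of the 150 tests in pairs of groups, 30 passed, and between 24 and 35 with 1 library left out. Exon length gave Areg 80.7% of the ligand sum in place of 42.8%.

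The labels number the replicates 1 to 6 in each group without naming the mouse. Deviations from the group means had a mean r of 0.092 between libraries of the same number and of −0.018 between other numbers, 34 of 90 pairs of the same number were over 0.1, and over the 7 comparisons a library correlated best with its own number in 21 of 42 cases. With the number as a replicate block, SCM against QCM gave 4 calls in place of 1 (Areg, Hbegf, Btc and Egfr) and Wnt5a against SCM 1 in place of 0 (Egfr), and in the other 6 comparisons the count of members was the same. Of the 150 tests in pairs of groups, 37 passed in place of 30. Over all genes the block raised the calls from 140 to 496 in SCM against QCM, from 107 to 259 in Wnt5a against SCM, from 58 to 178 in QCM, from 190 to 399 and from 137 to 255 for the antibody in SCM and in Wnt5a, and from 0 to 3 for their difference. Against complete media the calls went from 942 to 1133 in SCM and from 1576 to 1706 in Wnt5a. Epgn had few counts at this depth, in 19 of 36 libraries, and 0 to 58 counts within SCM.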
